A study of Mus musculus with 11 samples.

Results

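Egr1, Egr2, Egr3, Ier2, Ier3, Nr4a1, Dusp1, Zfp36 and Arc are immediate early genes. They were chosen by name as 9 of the 20284 genes that could be named on a mouse expression microarray. Each had 1 probe, assigned through the transcript accession in the scanner files, and each probe was printed as 1 spot. The study compared the transcriptome of otospheres, floating spheres grown from cells of the inner ear, with that of the cochlear sensory epithelium (CSE) from which they are made and with that of embryonic stem cells (ESCs).

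The CSE was dissected from wild-type ICR mice at postnatal day 1, with the cochleae of 10 mice pooled for a preparation, and its RNA was taken without culture. Otospheres were grown in suspension from trypsin-dissociated CSE cells of such mice, in serum-free medium with N2, B27, bFGF at 10 ng/ml, IGF1 at 50 ng/ml and heparan sulfate. They were dissociated with trypsin again for passage 1, and solid spheres were enriched with a strainer before lysis. The ESCs were the lines G4-2 (ES1) and D3 (ES2) at passage 13, kept on gelatin without feeder cells in 10% FBS with LIF at 1000 U/ml. Tissue of origin, culture and medium thus differed together between the groups, and no group was given a stimulus as a treatment. Total RNA labelled with Cy3 was hybridised to 11 arrays, 6 of otospheres (OS1 to OS6), 3 of CSE and 2 of ESCs. The labels do not say that replicates came from separate cultures or animals, so that p-values measure the spread between these samples only. ES1, OS1 to OS3, CSE1 and CSE2 lay on slide 1, and ES2, OS4 to OS6 and CSE3 on slide 2.

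OS1 with OS2 and OS4 with OS5 differed by less than the noise between spots of one probe, with robust ratios of 0.846 and 0.368 over bright probes, against at least 1.49 for every other pair within a group. With the plain SD in place of the robust spread the ratios were 1.03 and 0.449. Each of these pairs was averaged and counted as 1 sample, which left 4 otosphere, 3 CSE and 2 ESC samples. Between 55.1% and 71.6% of the spots of an array were well above background and none was saturated. The labels of the groups were checked against cell type markers. Pou5f1 had a log2 signal of 14.02 and 14.27 in the ESCs and at most 5.56 in the other samples, whereas the Nanog probe was lower in the ESCs (8.50 and 8.26) than in the other samples (8.82 to 10.75). The study itself lists Nanog among the genes raised only in ESCs. The values of the probe used here, the brightest kept one, are thus not read as the level of Nanog. All 6 hair cell markers and 5 of 6 supporting cell markers were higher in CSE than in ESCs, and all 6 supporting cell markers were lower in otospheres than in CSE.

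Immediate early genes are transcribed within minutes of a stimulus such as a growth factor, serum, depolarisation or stress, from factors that are already present in the cell and without new protein synthesis. Their messages are short-lived, and several of the products shut the response down again. Phosphorylated ternary complex factors with serum response factor at the CArG box, CREB at the cyclic AMP response element (CRE) and NF-kB are the factors best known for switching them on. In the cochlea, as in other tissues, single members also have lasting roles, such as that of Egr2 in myelinating Schwann cells.

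RefSeq start site windows (build GRCm38.p6, from 250 bases before to 50 bases after the start) were matched for Ier3, Dusp1, Zfp36, Egr2 and Nr4a1, and were searched on both strands for the CArG box, the CRE TGACGTCA, its shorter core TGACG (which lies within the full CRE), the EGR site GCGNGGGCG, the NF-kB site, the AP-1 site TGANTCA and the TATA box TATAAA. Egr1, Egr3, Ier2 and Arc are not shown. The sequences below are shown because they hold matches to some of these patterns. No pattern was matched in every gene, and a match does not show that a factor acts there. They are written 5′ to 3′ on the strand of the gene, with matches in capitals. For Ier3, Dusp1 and Zfp36 the bases from -150 to -1 before the start are given, for Egr2 the bases from -79 to -50 and for Nr4a1 those from -70 to -41.
Ier3, plus strand, chr17:35821563-35821712: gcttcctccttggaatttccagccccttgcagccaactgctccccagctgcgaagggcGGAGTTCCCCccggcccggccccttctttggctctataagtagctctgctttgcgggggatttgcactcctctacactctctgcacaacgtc
Dusp1, minus strand, chr17:26508473-26508622: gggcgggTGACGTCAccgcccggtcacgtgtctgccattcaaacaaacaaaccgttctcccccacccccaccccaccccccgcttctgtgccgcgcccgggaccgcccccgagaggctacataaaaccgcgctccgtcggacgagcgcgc
Zfp36, minus strand, chr7:28379229-28379378: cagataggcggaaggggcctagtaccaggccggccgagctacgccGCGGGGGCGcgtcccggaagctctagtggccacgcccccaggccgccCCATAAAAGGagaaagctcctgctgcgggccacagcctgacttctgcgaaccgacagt
Egr2, plus strand, chr10:67537790-67537819: cctcagtCCATATATGGgcagcgaCGTCAc
Nr4a1, plus strand, chr15:101266776-101266805: gCGTCAgtggCGCCCCCGCccctctccatg

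The capitals mark an NF-kB site in Ier3, a full CRE in Dusp1, an EGR site and a CArG box in Zfp36, a CArG box and a CRE core in Egr2, and a CRE core and an EGR site in Nr4a1. A CArG box stood in the windows of 2 of these 5 genes, Egr2 and Zfp36, and in those of 1.81% of all 27025 genes with windows. The full CRE of Dusp1 was found in 2.03% of all genes and the EGR site of Zfp36 and Nr4a1 in 6.27%. The NF-kB site, here in Ier3 and across the start of Nr4a1, was found in 8.22%. The core TGACG stood in windows of Dusp1, Egr2 and Nr4a1 and of 23% of all genes. TGANTCA (8.97% of all genes) and TATAAA (15.7%) were not found in the windows of the 5 genes.

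Values below are log2 signals, that is, background-corrected and quantile-normalised spot intensities on the log2 scale, and a step of 1 is a doubling within a probe. Levels are not compared between probes. In the comparisons of all samples, 1 gene passed the test in each contrast. Ier3 was higher in otospheres than in CSE and than in ESCs, and Egr2 was higher in CSE than in ESCs. No difference of the other genes passed the test. CSE3 had a higher signal than CSE1 and CSE2 for all 9 genes, among them Egr3 near background, and for 41.7% of all genes.

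**Figure D1:**
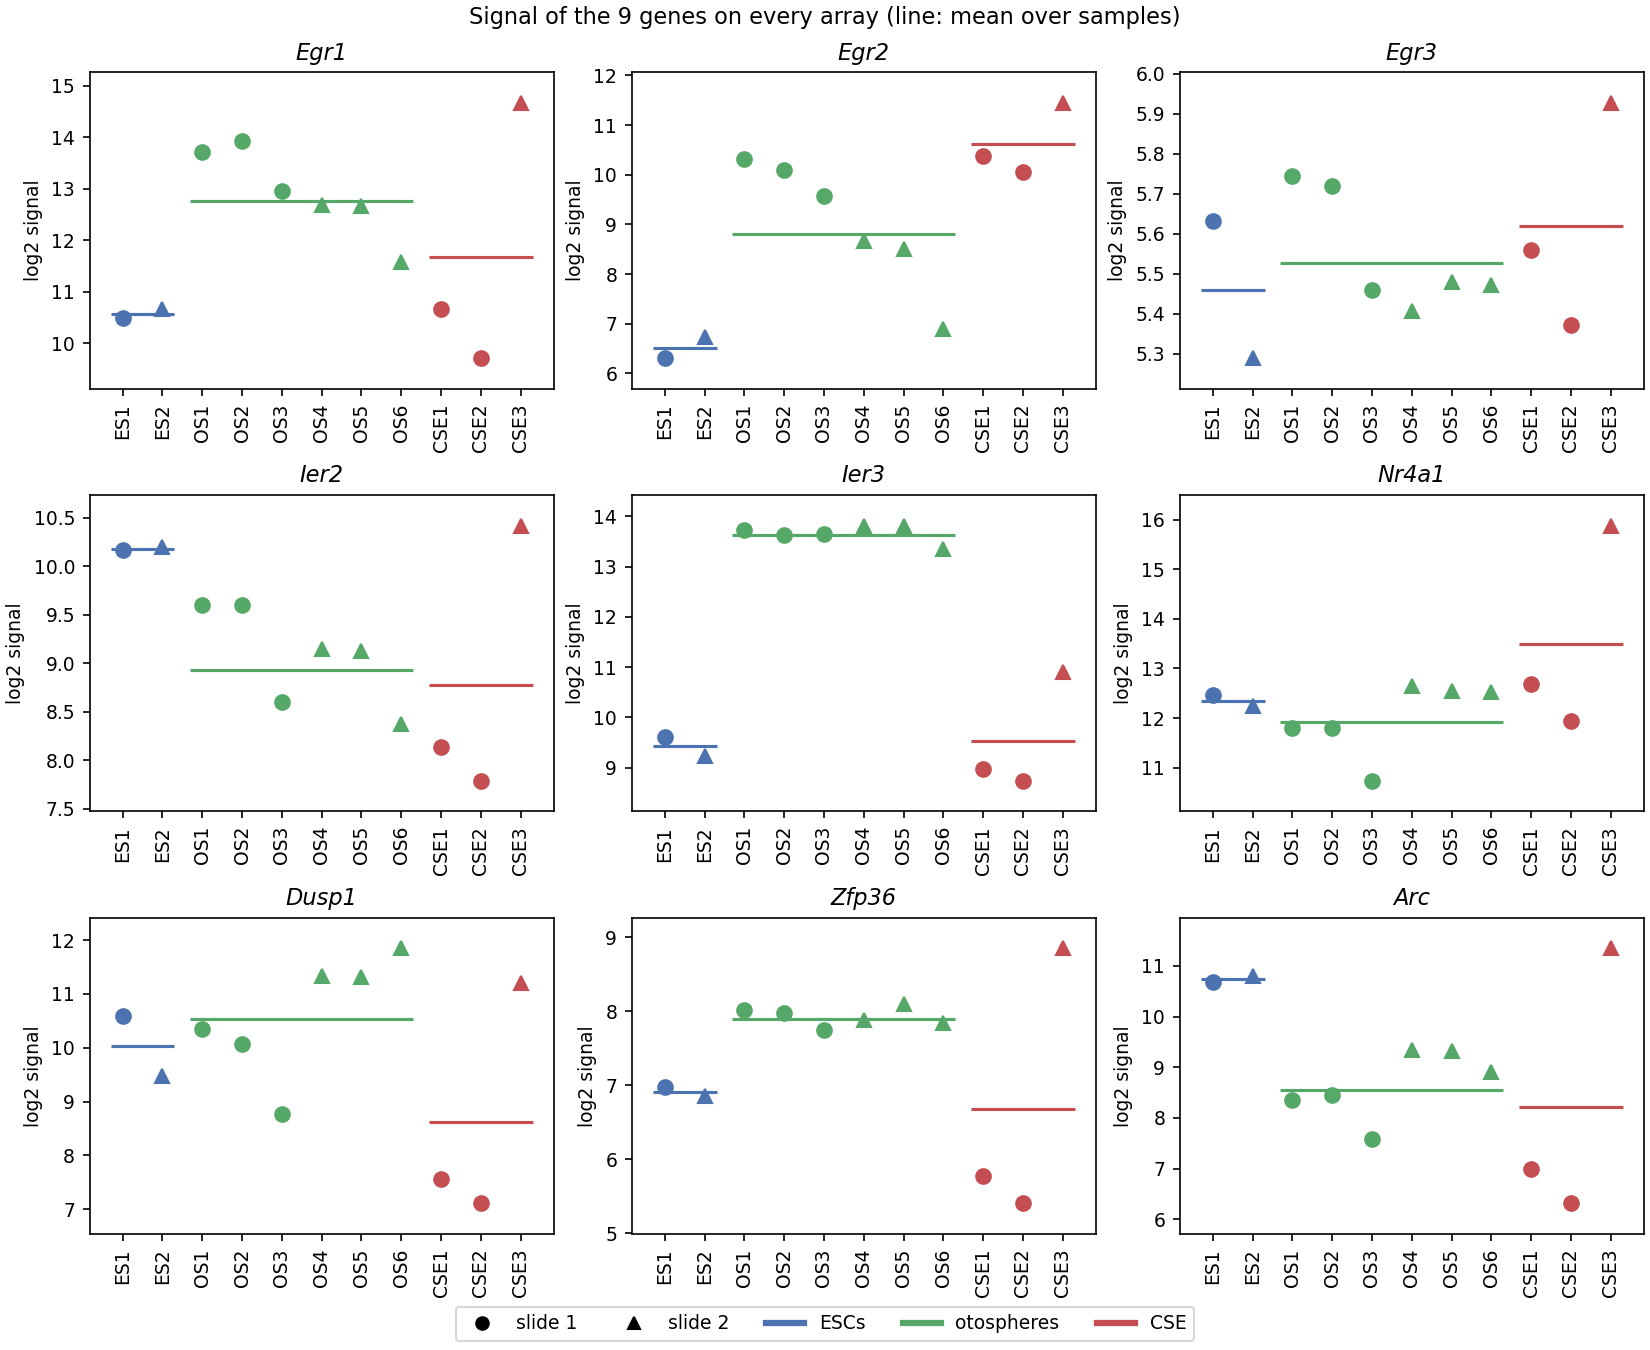
Log2 signal (vertical axis, own range for each gene) of the 9 genes on each of the 11 arrays, with circles for slide 1, triangles for slide 2, blue for ESCs, green for otospheres and red for CSE, and lines at the mean over samples. CSE3 lies above CSE1 and CSE2 in every panel, and Ier3 lies between 13.35 and 13.82 on the 6 otosphere arrays.

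Egr1, a zinc finger transcription factor, had log2 signals of 10.50 and 10.66 in ES1 and ES2. In otospheres it was 13.82 in OS1 with OS2, 12.96 in OS3, 12.67 in OS4 with OS5 and 11.57 in OS6. In CSE it was 10.66 in CSE1, 9.71 in CSE2 and 14.67 in CSE3. All otosphere samples thus lay above the ESCs, whereas the CSE samples lay on either side of both groups, with CSE3 the highest array of all and CSE2 the lowest. The group means were 10.58 ± 0.12 (SD, n = 2) in ESCs, 12.76 ± 0.93 (n = 4) in otospheres and 11.68 ± 2.63 (n = 3) in CSE. Otospheres exceeded ESCs by 2.18 (95% confidence interval -0.53 to 4.89, adjusted p = 0.222) and CSE by 1.08 (-1.31 to 3.46, adjusted p = 0.679), and neither difference passed the test.

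Egr2, a related factor that directs myelination in Schwann cells, was dim in the ESCs, at 6.31 and 6.73. The otosphere samples ran from 10.20 (OS1 with OS2) through 9.58 (OS3) and 8.58 (OS4 with OS5) down to 6.89 (OS6). CSE1, CSE2 and CSE3 had 10.37, 10.05 and 11.45. OS6 was thus close to the ESCs, OS1 with OS2 lay within the range of the CSE samples, and all CSE samples were far above the ESCs. CSE exceeded ESCs by 4.10 (SE 0.85, 95% confidence interval 2.17 to 6.04), a 17.2-fold higher signal with an adjusted p of 0.00648. The difference was 3.90 within slide 1 and 4.72 within slide 2. Otospheres exceeded ESCs by 2.29 (0.46 to 4.13), which did not pass the test (adjusted p = 0.0664). Without OS6, the lowest otosphere sample, the difference was 2.93 and passed (adjusted p = 0.00508), a rise that follows from that choice. Without any other otosphere sample it was 1.83 to 2.37 and did not pass (adjusted p of 0.105 to 0.129). Without ES1 or ES2 it was 2.08 or 2.50. The difference between otospheres and CSE was -1.81 (-3.43 to -0.19, adjusted p = 0.168).

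Schwann cell and mesenchyme markers were set beside Egr2. Of 6 Schwann cell markers, 4 were higher in CSE than in ESCs, beside 20.9% of all genes. This was not particular to Schwann cells. The same contrast had 6 of 6 hair cell, 5 of 6 supporting cell, 5 of 6 mesenchyme and 4 of 6 endothelial markers higher. It also had 4 of 5 macrophage, 3 of 4 erythroid and 1 of 6 neuron markers higher, and 1 supporting cell and 1 endothelial marker lower. The mean level of the 6 Schwann cell markers, each gene centred on its mean over the 9 samples, was -1.33 to -1.06 in ESCs, -0.52 to 0.24 in otospheres and 0.92 to 1.37 in CSE. The centred mean of the 6 mesenchyme markers in the otosphere samples, in the order above, was 0.98, 2.01, -0.36 and -2.59. The part of these cells in the Egr1 and Egr2 signals was not tested, and in bulk RNA fewer cells of a type and less RNA per cell cannot be told apart.

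Egr3, the third zinc finger factor of the family, lay near background. Its log2 signals were 5.63 and 5.29 in the ESCs, 5.44 to 5.73 in the otosphere samples, and 5.56, 5.37 and 5.93 in CSE1 to CSE3. The probe was well above background on only 2 of the 11 arrays, 1 of otospheres (OS2) and CSE3, so that the values are mostly bounds and no fold change is given. None of its 3 differences passed the test (adjusted p of 0.657 to 0.878).

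Nr4a1, an orphan nuclear receptor that acts as a transcription factor, was strong in every sample. The ESCs had 12.46 and 12.25. The otosphere samples had 11.80 (OS1 with OS2), 10.74 (OS3), 12.60 (OS4 with OS5) and 12.54 (OS6). CSE1 and CSE2, at 12.68 and 11.93, lay close to these values, whereas CSE3 reached 15.88, above all other arrays. The CSE mean of 13.50 ± 2.10 (n = 3) was not distinguishable from 11.92 ± 0.87 in otospheres (difference of otospheres from CSE -1.58, 95% confidence interval -3.54 to 0.39, adjusted p = 0.353) or from 12.35 ± 0.15 in ESCs (adjusted p = 0.475). Unlike Egr1 and Egr2, the slide 2 otospheres were the higher ones for this gene.

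Ier2 and Ier3 are named alike as immediate early response genes but are unrelated in sequence, and they had different patterns. Ier2, a small nuclear protein, was 10.17 and 10.19 in the ESCs. It was 9.60, 8.60, 9.14 and 8.37 in the otosphere samples in the order above, and 8.13, 7.79 and 10.42 in CSE. All otosphere samples were below the ESCs, while CSE3 was above them. The difference of otospheres from ESCs was -1.25 (-2.77 to 0.26, adjusted p = 0.211), that from CSE 0.15 (-1.19 to 1.48, adjusted p = 0.948).

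Ier3, which protects cells from apoptosis and is a target of NF-kB, had the clearest difference between groups. The otosphere samples had 13.68, 13.65, 13.81 and 13.35, the ESCs 9.62 and 9.24, and CSE 8.97, 8.74 and 10.91. The otospheres agreed within 0.46 and did not overlap with the other groups, the nearest sample being CSE3. Otospheres exceeded CSE by 4.08 (SE 0.46, 95% confidence interval 3.03 to 5.14), a 17.0-fold higher signal with an adjusted p of 9.08e-04. They exceeded ESCs by 4.19 (SE 0.53, 3.0 to 5.39), 18.3-fold, with an adjusted p of 4.78e-04. Within slide 1 the difference from CSE was 4.81 and within slide 2 it was 2.67, the latter against CSE3 alone. Among the 18565 genes tested, 7.17% had a called rise and 10.3% a called fall from CSE to otospheres, and of the 9 genes 1 was higher and 0 were lower. Against ESCs, where 18.4% of genes were called higher in otospheres and 20.4% lower, the members again counted 1 and 0. In CSE against ESCs, with 20.9% of genes higher and 20.0% lower, Egr2 was the single member called.

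Dusp1 encodes a phosphatase that inactivates MAP kinases and so limits the early response. It was 10.60 in ES1 and 9.48 in ES2. The otosphere samples had 10.21, 8.77, 11.32 and 11.85, and CSE had 7.55, 7.11 and 11.21. CSE1 and CSE2 lay below every other sample, and OS3 was the lowest otosphere sample. Otospheres exceeded CSE by 1.91, but the interval was wide (-0.46 to 4.29, adjusted p = 0.352), and the difference from ESCs of 0.50 ran from -2.20 to 3.20 (adjusted p = 0.803).

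Zfp36 encodes tristetraprolin, which binds AU-rich elements and speeds the decay of cytokine and other early messages. It had 6.97 and 6.86 in the ESCs and was even among otospheres, at 8.0, 7.75, 7.99 and 7.83. CSE1 and CSE2 had 5.77 and 5.41, whereas CSE3 had 8.85. Without CSE3 the order of groups was thus otospheres, ESCs and CSE, with no overlap, and CSE3 lay above all of them. The differences did not pass the test in all samples (otospheres against CSE 1.22, adjusted p = 0.387, and against ESCs 0.98, adjusted p = 0.422).

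Arc, a regulator of AMPA receptors at synapses and an activity marker of neurons, was higher in the ESCs (10.67 and 10.80) than in any otosphere sample (8.41, 7.59, 9.33 and 8.91). In CSE it was 6.99, 6.32 and 11.35. CSE2 was thus the lowest and CSE3 the highest of all arrays. Its differences were -2.18 for otospheres against ESCs (-4.90 to 0.54, adjusted p = 0.226) and -2.52 for CSE against ESCs (-5.39 to 0.35, adjusted p = 0.182).

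CSE3 had higher signals than the other CSE arrays for all members, beside 41.7% of all genes. It exceeded the mean of CSE1 and CSE2 by 4.70 for Arc (25.9-fold), 4.48 for Egr1 (22.3-fold), 3.88 for Dusp1 (14.7-fold), 3.57 for Nr4a1 (11.9-fold) and 3.26 for Zfp36 (9.58-fold). The gap was 2.46 for Ier2, 2.05 for Ier3, 1.24 for Egr2 and 0.46 for Egr3. It was over 2 for 7 of the 9 genes and for 32 of 18554 genes (0.172%). The members' median was 3.26 and that of all genes 0.07, with the 5th and 95th percentiles of all genes at -0.66 and 0.74. Only 3 genes, Fos, Fosb and Atf3, had a larger gap than Arc. CSE1 and CSE2 differed by 0.19 to 0.95 for the members, always with CSE2 lower. The gap rests on 1 array against 2 and has no test of its own.

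The gap was present in the scanner's own processed intensities before any normalisation between arrays. Egr1 had 1905 and 782 in CSE1 and CSE2 and 21201 in CSE3, Nr4a1 had 6308, 2820 and 42656, and Arc had 116, 68.2 and 1950. Egr2, by contrast, had 1683, 1100 and 2066. After normalisation, CSE3 was the highest of the 11 arrays for 7 of the 9 genes and for 11.5% of all genes, the exceptions being Ier3 and Dusp1, which were higher on otosphere arrays. CSE2 was the lowest of the 11 arrays for 6 of the 9 genes and for 14.4% of all genes.

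The spread among the CSE samples was wide for these genes. The SD of the members had a median of 1.89 in CSE, against 0.245 for all genes, and 8 of the 9 genes, all but Egr3, exceeded the 95th percentile of 0.659. In otospheres the median SD of the members was 0.75 against 0.285, and 2 genes, Egr2 (1.45) and Dusp1 (1.36), exceeded the 95th percentile of 1.11. In ESCs the members differed less between the lines than a typical gene (median SD 0.146 against 0.278), and none exceeded the 95th percentile. The largest difference between the lines was that of Dusp1 (ES2 minus ES1 -1.12).

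**Figure D2:**
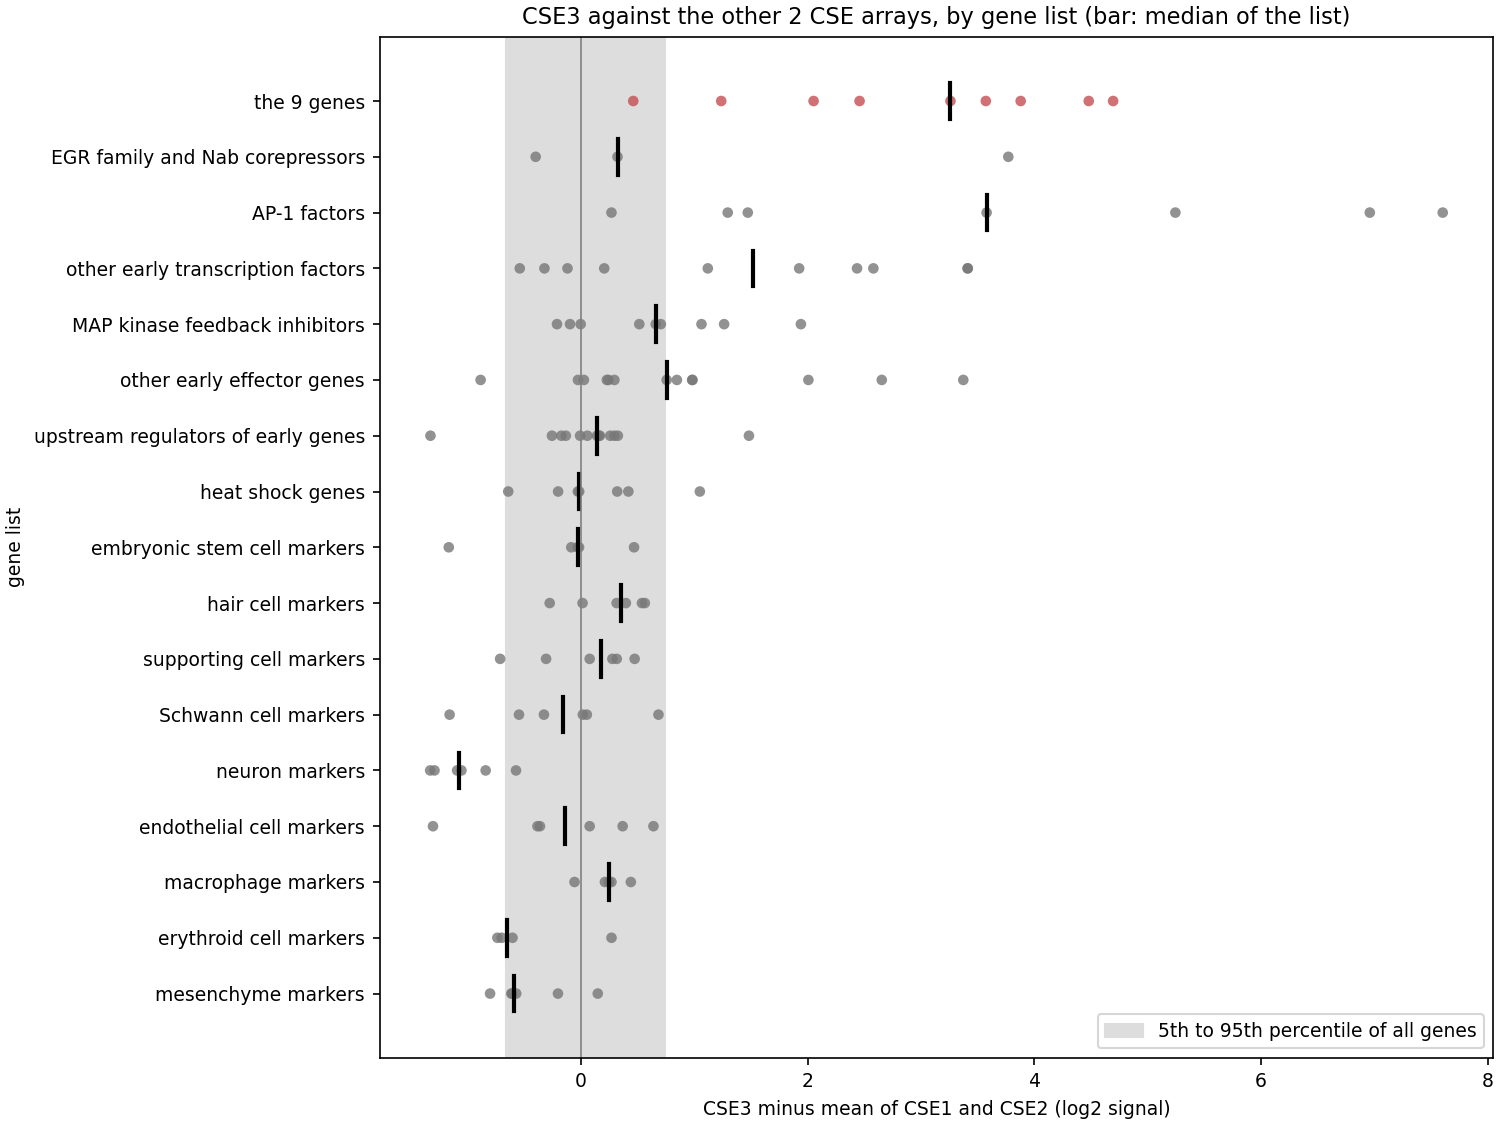
Log2 signal of CSE3 minus the mean of CSE1 and CSE2 (horizontal axis) for each gene of the 9 genes (red) and of each gene list (grey), with a bar at the median of the list and a band from the 5th to the 95th percentile of all genes. The medians of the 9 genes (3.26) and the AP-1 factors (3.58) lie to the right of the band, although Egr3 (0.46) and Fosl1 (0.27) lie inside it, and the medians of the heat shock genes (-0.01) and the hair cell and supporting cell markers (0.36 and 0.18) lie within it.

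Other features of CSE3 were compared with those of the other CSE arrays. Its share of spots well above background was 60%, against 68.3% and 71.6%. All 6 neuron markers were lower in CSE3 than in the mean of CSE1 and CSE2, with a median gap of -1.07 (centred means of 2.28 in CSE1, 2.62 in CSE2 and 1.42 in CSE3). Erythroid and mesenchyme markers had medians of -0.65 and -0.59. Hair cell, supporting cell, macrophage, endothelial and Schwann cell markers had medians of 0.36, 0.18, 0.25, -0.14 and -0.15, and no marker of these lists was higher in CSE3 by more than 1. The part of cell makeup, signal strength or handling of this sample in its early gene levels was not tested. Since CSE3 was the CSE array of slide 2, the array and the slide cannot be told apart within CSE.

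The other groups also had arrays on both slides, and their differences between the slides are given as a description. Between the slides, the ESC lines differed by -1.12 to 0.42 for the 9 genes, with a median of -0.12. The slide 2 otospheres were lower than those of slide 1 for Egr1 (-1.27) and Egr2 (-2.16), and higher for Dusp1 (2.10), Nr4a1 (1.30) and Arc (1.12). Between the same otospheres the hair cell markers had a median difference of 1.60 and the mesenchyme markers of -2.94. The 7 heat shock genes had a median of 0.16, with Hspa1a and Hspb1 at 2.08 and 2.00 and the others between -0.33 and 0.36. The part of these cells or of stress in the slide differences was not tested. For Zfp36 and Ier3 the otospheres of the slides differed by 0.04 and -0.09. The 9 genes therefore had no common direction between the slides in otospheres (median -0.09), and it was positive for all 9 in CSE. In ESCs the slide is also the cell line, and no otosphere sample lay on both slides. The part of the slide in these differences was not tested.

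**Figure D3:**
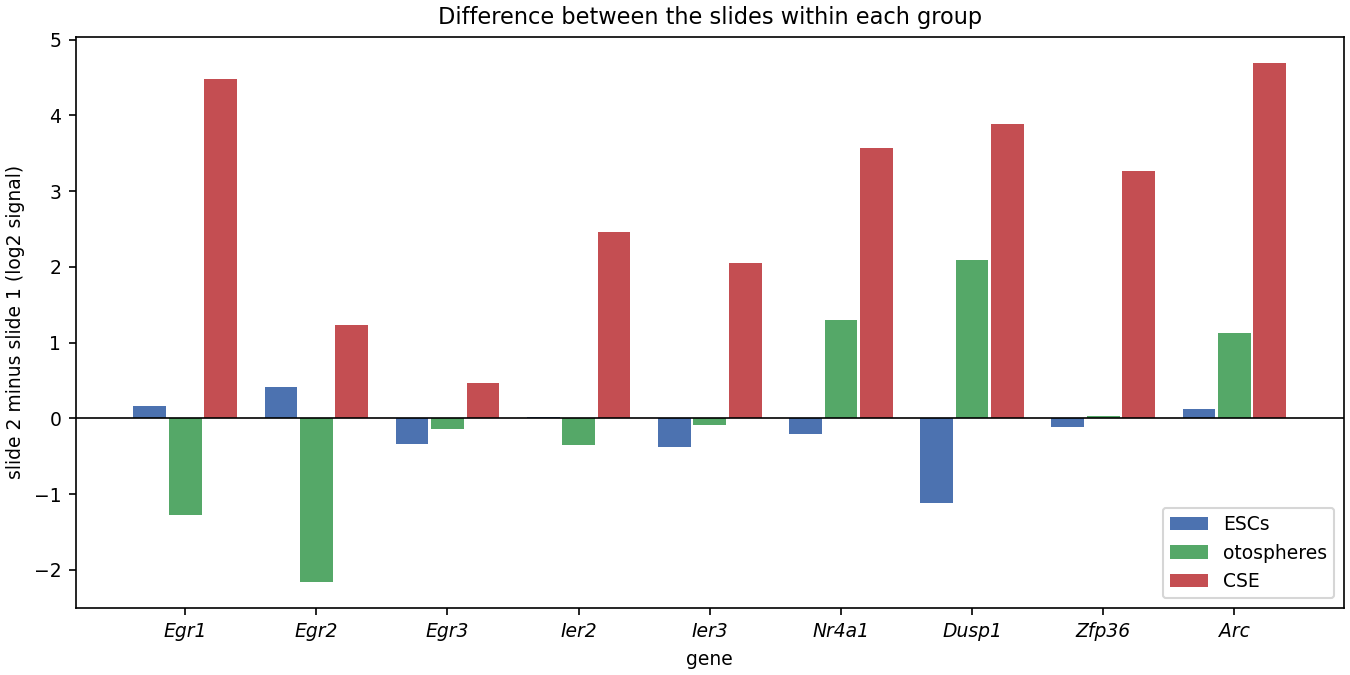
Log2 signal on slide 2 minus slide 1 (vertical axis) for each of the 9 genes, within ESCs (blue, ES2 minus ES1), otospheres (green, means of 2 samples per slide) and CSE (red, CSE3 minus the mean of CSE1 and CSE2). The red bars are all positive, from 0.46 to 4.70, and the green bars run from -2.16 to 2.10.

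The comparisons were therefore also made without CSE3, which leaves 2 CSE samples, both of slide 1. Otospheres were then higher than CSE for 3 of the 9 genes and lower for 0, with 4.37% and 6.60% of all genes called in these directions. The 3 were Ier3 (difference 4.77, adjusted p = 7.71e-05), Zfp36 (2.30, SE 0.18, 4.93-fold, adjusted p = 7.08e-04) and Egr1 (2.57, SE 0.57, 5.94-fold, adjusted p = 0.0385). Dusp1 (3.21, adjusted p = 0.0591) and Arc (1.91, adjusted p = 0.0516) came close without passing. As CSE3 was left out because these genes were high in it, their larger differences follow from that choice. The members' median difference between otospheres and CSE rose from 0.34 to 1.91 on the log2 scale, against -0.01 for all genes with CSE3 included.

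Without CSE3, CSE was lower than the ESCs for Arc (-4.09, SE 0.53, adjusted p = 0.00153), Zfp36 (-1.33, adjusted p = 0.00346) and Ier2 (-2.22, adjusted p = 0.00562). It was higher for Egr2 (3.69, adjusted p = 0.0248). Of all genes, 17.9% were then called higher and 17.7% lower. The lower CSE levels of the members follow from the choice to leave out CSE3, which the adjusted p-values do not take into account. The fit shares 1 estimate of the spread per gene across groups, so that leaving out CSE3 also changed the intervals of otospheres against ESCs, whose differences stayed the same by construction. They became narrower except for Egr2 (0.41 to 4.18, adjusted p = 0.0771). There Ier3, Zfp36 (adjusted p = 0.00602) and Egr1 (adjusted p = 0.0255) were called higher, and Arc (adjusted p = 0.0105) and Ier2 (adjusted p = 0.0304) lower, beside 17.3% and 19.7% of all genes. With all samples only Ier3 was called, so that the other calls came with the smaller spread that the same choice gives. Within slide 2, where CSE is CSE3 alone, the difference of otospheres from CSE was positive for Ier3 (2.67) and Dusp1 (0.38) and negative for the other 7 genes. For Egr1 (-2.55), Arc (-2.22), Ier2 (-1.66), Zfp36 (-0.94) and Egr3 (-0.47) the sign was the opposite of that within slide 1.

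**Figure D4:**
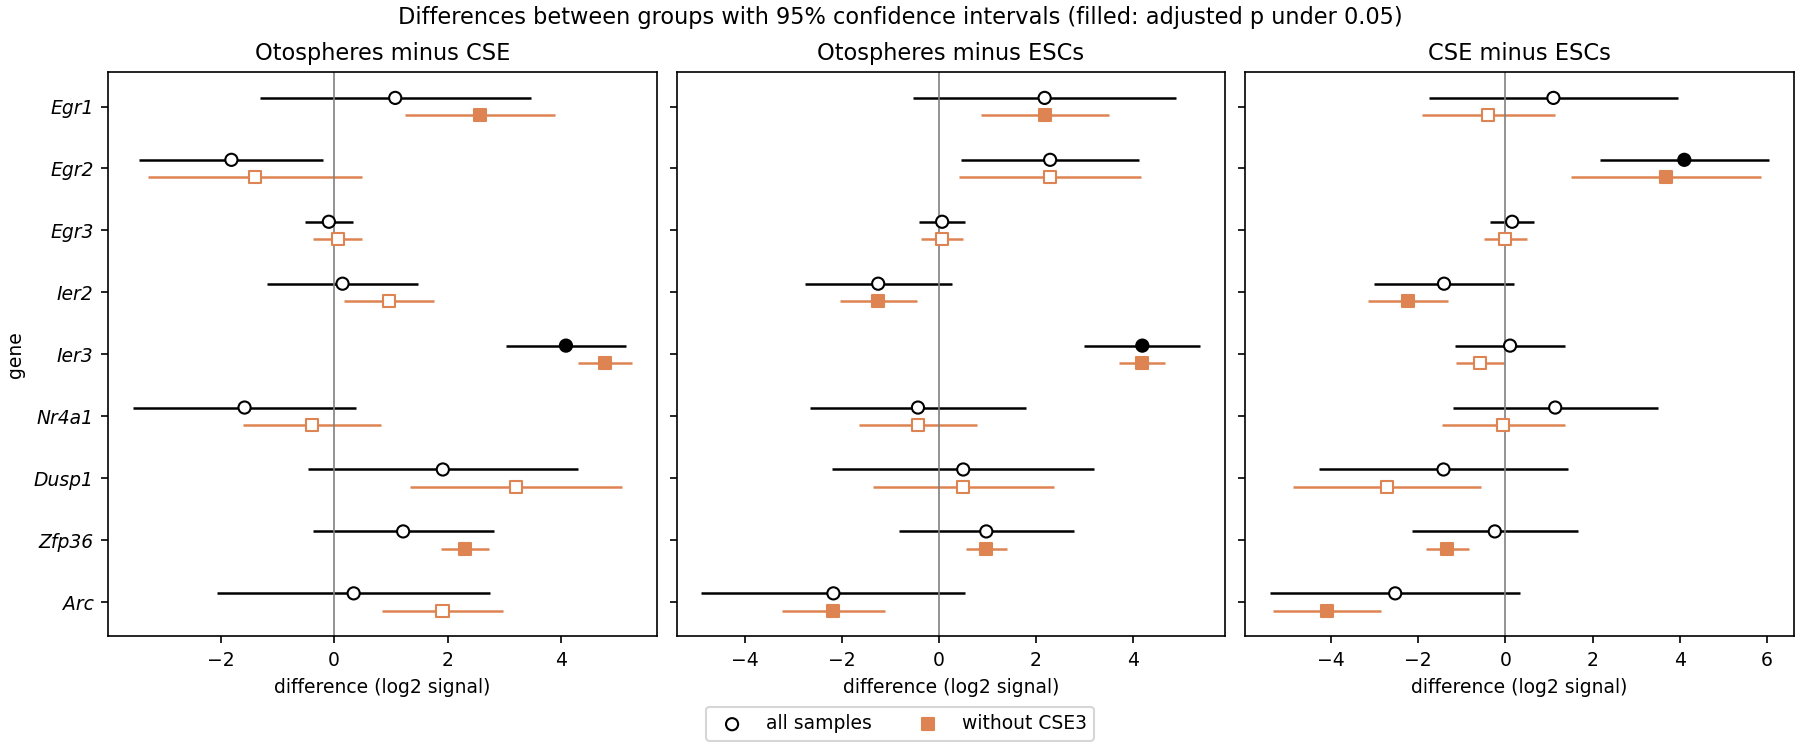
Differences in log2 signal (horizontal axis) with 95% confidence intervals for the 9 genes in the 3 contrasts, with all samples (black circles) and without CSE3 (orange squares), filled where the adjusted p was under 0.05. With all samples only Ier3 (4.08 and 4.19) and Egr2 (4.10, CSE minus ESCs) are filled, and the black intervals of Egr1, Dusp1 and Arc span about 5 log2 units.

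Other genes of the early response were taken from lists of known members. Of the rest of the EGR family and its Nab corepressors, Egr4 had a CSE3 gap of 3.77 (4.48, 4.95 and 8.49 in CSE1 to CSE3). Nab2, which represses EGR activity, was higher in otospheres than in CSE (1.04, adjusted p = 0.0283), a call that was lost without CSE3, and than in ESCs (1.88, adjusted p = 0.00116), and Nab1 was higher in otospheres than in ESCs (2.25, adjusted p = 0.00611). All 7 AP-1 factors measured had CSE3 above CSE1 and CSE2, by up to 7.60 for Fos (6.91, 5.57 and 13.84). Fosl2 and Fosl1 were higher in otospheres than in CSE (4.59 and 2.48) and none was lower. Without CSE3, 5 of the 7 were called higher in otospheres than in CSE. Against ESCs, otospheres had 3 of the 7 higher, Fosl2, Jun and Fosl1 (4.69, 3.39 and 0.78), and CSE had 1 lower, Fosl1 (-1.70).

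Of the 10 other early transcription factors measured, 7 were higher in CSE3 than in CSE1 and CSE2, with gaps of 3.41 for Maff and Klf2. Myc was higher in otospheres than in CSE (1.67, adjusted p = 0.0373), and Nr4a2, the relative of Nr4a1, was higher in otospheres (2.39) and in CSE (3.34) than in ESCs. Of these 10 factors 1 was called between otospheres and CSE, otospheres exceeded ESCs for 2 and fell short of them for 1, and CSE exceeded ESCs for 1 and fell short of them for 3, with Klf2 falling most in both (-4.51 and -4.35). Among 13 other effector genes, 10 had CSE3 above both other arrays and the median gap was 0.76, led by Socs3 (3.37) and Btg2 (2.65). Gadd45b (3.68, adjusted p = 0.00696), Trib1 (1.93) and Plk3 (1.31) were higher in otospheres than in CSE and none of the 13 was lower. Against ESCs 5 were higher and 1 was lower in otospheres, and 4 were higher and 1 was lower in CSE, with Rgs2 rising most (3.38 and 5.30) and Plk3 the one that fell (-1.84 and -3.15). Of 9 feedback inhibitors of MAP kinase signalling, Dusp4 (2.41) and Dusp5 (2.18) were higher in otospheres than in CSE. Between otospheres and ESCs 2 were higher and 2 lower, and 4 were lower in CSE than in ESCs, led by Dusp4 (-3.53). Their median CSE3 gap was 0.66. Without CSE3, the genes called higher in otospheres than in CSE numbered 3 of the 10 transcription factors, 4 of the 13 effector genes and 3 of the 9 inhibitors. Several counts of these lists were near the shares of all genes given above, and the lists were not tested as sets.

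Regulators upstream of these genes were listed too. None of 13, among them Srf, the Elk factors, Creb1 and the MAP kinases, passed the test between otospheres and CSE, and their median CSE3 gap was 0.14, with the extremes at 1.48 for Srf and -1.33 for Elk4. The Elk1 probe had signals of 17.65 to 18.33 in all samples, and whether it measures Elk1 was not tested. Elk3 and Mrtfb were higher in otospheres (2.07 and 1.33) and in CSE (2.18 and 1.51) than in ESCs. The 7 heat shock genes had a median CSE3 gap of -0.01, and Hspb1 was higher in otospheres than in CSE (4.38, adjusted p = 0.00194). Over all genes, 41.7% had CSE3 above both other CSE arrays and 1.63% had a gap over 1.

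Likeness to Egr1 was measured over the 9 samples as Pearson's r of log2 signals among 18545 genes with 1 probe each, and is a description, since samples of a group share their source. The most similar genes that are no members were Fos (r = 0.966), Pik3ap1 (0.936), Ccl3 (0.923), Cxcl2 (0.917) and Gm14137 (0.897), the last of which had no array well above background. Without CSE3, r was 0.946 for Fos and 0.882 for Ccl3. After the group means had been subtracted, Xrra1 (0.973), Defb23 (0.971), Il1a (0.965), Olfr206 (0.964) and Ccl3 (0.964) came closest. Of these, Defb23 and Olfr206 likewise had no array well above background, and Il1a had 1. Without CSE3, r of these genes ran from 0.795 (Il1a) to 0.901 (Ccl3). Among the members, r with Egr1 of these deviations was 0.971 for Ier2, 0.934 for Ier3, 0.923 for Zfp36, 0.817 for Arc and 0.730 for Nr4a1. Without CSE3 it was 0.933 for Egr2, 0.847 for Ier2, 0.563 for Ier3, 0.530 for Egr3 and 0.513 for Zfp36, and -0.21 for Arc, -0.29 for Nr4a1 and -0.50 for Dusp1. Over these 8 samples the values were thus graded, from close to Egr1 to opposite in sign.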

How the data were processed

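RNA of 6 otosphere, 3 CSE and 2 ESC samples was measured on single-colour arrays. Per the file headers, the deposited scanner files give linear intensities for every spot (median of the signal, median of the surrounding background, and a processed intensity) with quality flags. A second deposited file holds log2 values that the authors had corrected for background, quantile-normalised and filtered, and it served as an alternative.

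Background was removed from the median intensities, the files having no mean, by normexp with an offset of 16 (limma 3.58.1, R 4.3.3). Values were put on the log2 scale and quantile-normalised across 11 arrays, without outlying spots. To be tested, a probe had to exceed the 95th percentile of the 308 negative controls by 10% or more on 2 arrays or more, as did 47997 of 55681 probes. RefSeq gave a gene for 26762 probes, and the brightest probe stood for a gene. Contrasts came from a model with a mean per group (lmFit, eBayes), and p-values were adjusted over all tested probes by Benjamini-Hochberg with a threshold of 0.05. The scripts were checked on simulated data. The number of arrays limits the precision.

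Members and lists were chosen with earlier results of these data known. Genes were named when they were members, when they had one of the 3 largest called rises or falls of a list in a contrast, or when they were among the 5 most like Egr1 by either measure. Other genes, among them those named for their gap in CSE3 and single markers, were chosen after their values were seen. Each replicate was left out in turn, and the offset, scaling, filter, slide, replicate block, averaging of arrays and probes, moderation and groups in the model were varied.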

Additional observations from a re-analysis of the deposited data

Results flagged for a closer look

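Among the 9 genes in the 4 otosphere samples, the largest gap exceeded Dixon's 95% critical value for 1 gene. Egr3 was 5.73 in OS1 with OS2, against 5.47 in the nearest other sample, a gap of 0.900 of the range. The probe was well above background in OS2 but not in the other otosphere arrays, and chance alone gives such a gap in about 1 of 20 groups.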

How the results depend on the processing

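Leaving out samples in turn gave 1 to 3 members higher in otospheres than in CSE, 1 to 3 higher and 0 to 2 lower in otospheres than in ESCs, and 0 to 3 lower in CSE than in ESCs, the highest counts without CSE3 and 2 higher than in ESCs without OS6. In otospheres against ESCs, 2 members were higher with every array as a separate sample and with the mean over the probes of a gene, and 3 were higher and 2 lower with only the groups of the contrast. As each member has 1 probe, the mean over probes left the Egr2 difference at 2.29. Its adjusted p moved from 0.0664 to 0.0475 because the set of values tested beside it changed. With the replicate block and every array separate, 2 were higher, since Egr2 passed (3.37, adjusted p = 0.00605), and 4 differences changed sign: Egr3 (0.022) and Arc (-0.082) in otospheres against CSE, Dusp1 (-0.71) against ESCs, and Ier3 (-0.22) in CSE against ESCs. Whether the numbers pair samples is not known. OS1 with CSE1 had a correlation of 0.36, but OS2 with CSE2 and OS3 with CSE3 had -0.34 and -0.39. The highest, 0.50, was that of OS3 with CSE2, which differ in number. Deviations from the means of such small groups depend on each other, so that these values cannot settle it. Ier3 against CSE and ESCs and Egr2 in CSE against ESCs kept their calls under every alternative that gave a test, with lowest differences of 3.68, 3.91 and 3.67.

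Some differences that did not pass the test changed sign when samples were left out. Over these settings otospheres minus CSE ran from -0.22 to 0.061 for Egr3, from -0.35 to 0.97 for Ier2 and from -0.61 to 1.91 for Arc. Otospheres minus ESCs ran from -0.10 to 0.24 for Egr3 and from -0.057 to 1.09 for Dusp1, and for Egr3 was -0.30 with scaling to the 75th percentile, which moved the median of all probes to -0.31 there and to -0.28 in CSE minus ESCs (-0.03 and -0.06 otherwise). CSE minus ESCs ran from -0.39 to 2.09 for Egr1, -0.012 to 0.33 for Egr3, -0.57 to 0.51 for Ier3, -0.046 to 1.93 for Nr4a1 and -1.33 to 0.40 for Zfp36. The median gap of CSE3 over CSE1 and CSE2 for the 9 genes was 3.58 and 2.59 with offsets of 0 and 50, 3.73 with scaling to the 75th percentile and 3.56 in the deposited table, settings added for this value after the data were seen. The causes were not tested. With 1 spot per probe and 2 to 4 samples per group, differences under the intervals given could not be measured.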
